A study of Mus musculus with 8 samples.

Results

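The 10 genes described here are markers of contractile and vessel-supporting mesenchymal cells: Acta2, Tagln, Myh11, Cnn1, Actg2, Des and Lmod1, which belong to the contractile and filament apparatus of smooth muscle and myofibroblasts, and Rgs5, Pdgfrb and Cspg4, which mark pericytes. They were taken by name from the 52459 gene symbols of the count table. Of the 10 genes, 9 had enough counts to be tested together with 14085 genes in all, and Cnn1, with 27 counts over all libraries, did not. The RNA came from frozen nodules of lung tumours in a genetically engineered mouse model on a mixed strain background, in 4 groups of 2 libraries. One group received anti-PD-1 with JQ1 (the combination), one JQ1, one anti-PD-1, and one vehicle. JQ1 displaces BET bromodomain proteins from acetylated chromatin, and anti-PD-1 is an antibody against an inhibitory receptor of T cells. All 4 groups carry the tumour model, so the vehicle nodules are tumours given no active agent and not normal lung. Sex, age, dose, time on treatment and whether the libraries of a group came from separate animals were not given in the labels, so the p-values speak only of the spread among these libraries, which can be partly technical.

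Smooth muscle cells contract through filaments of alpha and gamma smooth muscle actin (Acta2, Actg2) and smooth muscle myosin (Myh11), with transgelin (Tagln), calponin (Cnn1) and leiomodin (Lmod1) bound to actin and desmin (Des) as the intermediate filament of muscle cells. Many of these genes are driven by serum response factor (SRF) and its coactivators of the myocardin family through a DNA element called the CArG box. Myofibroblasts are fibroblasts that have gained Acta2 and contractile fibres, and are common in the stroma of tumours and in scarring lung. Pericytes lie on capillaries and respond to platelet-derived growth factor from endothelial cells through the receptor Pdgfrb, and they also carry the proteoglycan NG2 (Cspg4) and Rgs5, a regulator of G protein signalling.

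Total counts ranged from 2719816 in combination replicate 1, the shallowest library, to 15224108 in vehicle replicate 2. Levels are given as CPM (counts scaled to a common library size), using total count and TMM factor. Ribosomal RNA symbols took 46.0% and 52.5% of counts in the combination libraries, 35.02% and 27.7% with JQ1, 23.5% and 24.2% with anti-PD-1, and 23.7% and 21.8% with vehicle, so this share moved with JQ1, and its part in the results below was not tested beyond a fit that holds it as a term. Xist counts marked 3 libraries as female: combination replicate 1, JQ1 replicate 1 and anti-PD-1 replicate 2. Both vehicle libraries were male and each treated group was mixed, so every comparison with vehicle also differs in sex. The part of sex in the results below was not tested beyond a fit that holds it as a term.

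The members differed widely in abundance. Per kilobase of exon, and averaged over the 4 groups, Acta2 stood at 59.0 CPM per kb and Des at 11.0. Pdgfrb (5.85), Rgs5 (4.73), Actg2 (3.33), Tagln (2.93) and Myh11 (1.32 CPM per kb) followed, and Lmod1 (0.49), Cspg4 (0.37) and Cnn1 (0.10) were lowest. The libraries were made with probes for coding regions, and per kilobase of coding sequence the order differed: Acta2 stood at 114.5, Rgs5 at 39.6, Des at 29.5, Pdgfrb at 9.68, Tagln at 9.67, Actg2 at 4.59, Myh11 at 1.70, Lmod1 at 1.09, Cspg4 at 0.63 and Cnn1 at 0.31 CPM per kb. In these nodules Acta2 was thus the highest member on both scales. Des was high as well (11.0 and 29.5), Tagln was lower (2.93 and 9.67), and Myh11 and Cnn1 were low or near 0. Myh11 and Cnn1 are usually used to tell mature smooth muscle from myofibroblasts. Capture by probes can differ between genes, and the cell types behind these levels were not tested. Cnn1 had 0 and 1 counts in the combination libraries, 8 and 0 with JQ1, 8 and 1 with anti-PD-1, and 4 and 5 with vehicle. The 2 libraries with no Cnn1 count allow levels up to 1.26 CPM (combination replicate 1) and 0.261 CPM (JQ1 replicate 2), from 3 counts and for counting error only. Cnn1 did not pass the filter on counts, so its differences between groups were not tested.

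Promoter sequences are shown for Acta2, Des and Rgs5, the 3 members with a call in the comparisons that follow. RefSeq (GRCm38.p6) entries of 250 bases before to 50 bases after the start site were matched for 6 of the 10 members: Acta2, Cnn1, Des, Lmod1, Rgs5 and Cspg4. Tagln, Myh11, Actg2 and Pdgfrb are named only. The windows lie at chr19:34255324-34255623 on the minus strand for Acta2, chr1:75360042-75360341 on the plus strand for Des and chr1:169655251-169655550 on the plus strand for Rgs5, printed 5′ to 3′, with capitals for CArG box matches in which 1 base of the 6-base core is neither A nor T.
Acta2 promoter: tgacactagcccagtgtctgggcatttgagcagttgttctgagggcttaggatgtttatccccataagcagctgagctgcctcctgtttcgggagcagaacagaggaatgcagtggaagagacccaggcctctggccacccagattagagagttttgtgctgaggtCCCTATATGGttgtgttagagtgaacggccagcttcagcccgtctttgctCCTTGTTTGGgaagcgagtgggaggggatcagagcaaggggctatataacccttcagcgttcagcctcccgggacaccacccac
Des promoter: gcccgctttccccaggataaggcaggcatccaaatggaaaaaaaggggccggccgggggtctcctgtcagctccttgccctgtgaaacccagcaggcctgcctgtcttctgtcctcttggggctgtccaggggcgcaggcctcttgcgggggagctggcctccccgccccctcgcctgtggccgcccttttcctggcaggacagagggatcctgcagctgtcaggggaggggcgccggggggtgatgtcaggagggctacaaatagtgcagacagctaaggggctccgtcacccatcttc
Rgs5 promoter: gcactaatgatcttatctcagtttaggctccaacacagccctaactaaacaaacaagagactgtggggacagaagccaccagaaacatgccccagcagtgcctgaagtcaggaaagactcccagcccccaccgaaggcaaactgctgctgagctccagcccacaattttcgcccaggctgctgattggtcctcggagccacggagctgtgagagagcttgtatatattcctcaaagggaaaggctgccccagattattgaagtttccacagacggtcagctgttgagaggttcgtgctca
The CArG box was searched on both strands as a pair of C bases, 6 A or T bases and a pair of G bases. No exact match stood in the 6 member windows, and exact matches stood in 1.63% of all 32851 windows. With 1 core base different, the Acta2 window held 2 matches, starting at -84 and -34 from the RefSeq start site of that window and not overlapping, and the other 5 member windows held none. Such looser matches stood in 9.98% of all windows. The RefSeq start site of the Acta2 window lies 217 bases inside the gene as annotated by GENCODE, whose coordinates are given for the genes, and that of Des lies 37 bases outside its gene, while both sources give the same start for Rgs5. A match is a description of these letters and not of binding.

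Acta2 (alpha smooth muscle actin, chromosome 19, 34241090 to 34255590, minus strand, GRCm38) was the member whose level differed most between groups. It stood at 26.1 and 56.3 CPM in the combination libraries, 58.2 and 117 CPM with JQ1, 186 and 140 CPM with anti-PD-1, and 246 and 206 CPM with vehicle. All 4 libraries given JQ1 lay below all 4 libraries without it, as for 9.37% of all tested genes. The combination libraries were the lowest, and 29.1% of all tested genes had both combination libraries below both vehicle libraries. Group means were 41.2 ± 21.4 CPM for the combination, 87.7 ± 41.7 for JQ1, 163 ± 32.7 for anti-PD-1 and 226 ± 28.5 for vehicle (SD, n = 2 each). In that order of means, the libraries of JQ1 lay just above those of the combination, and the libraries of anti-PD-1 just below those of vehicle, with gaps between neighbouring groups no larger than the gap between the 2 libraries of a group.

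**Figure D1:**
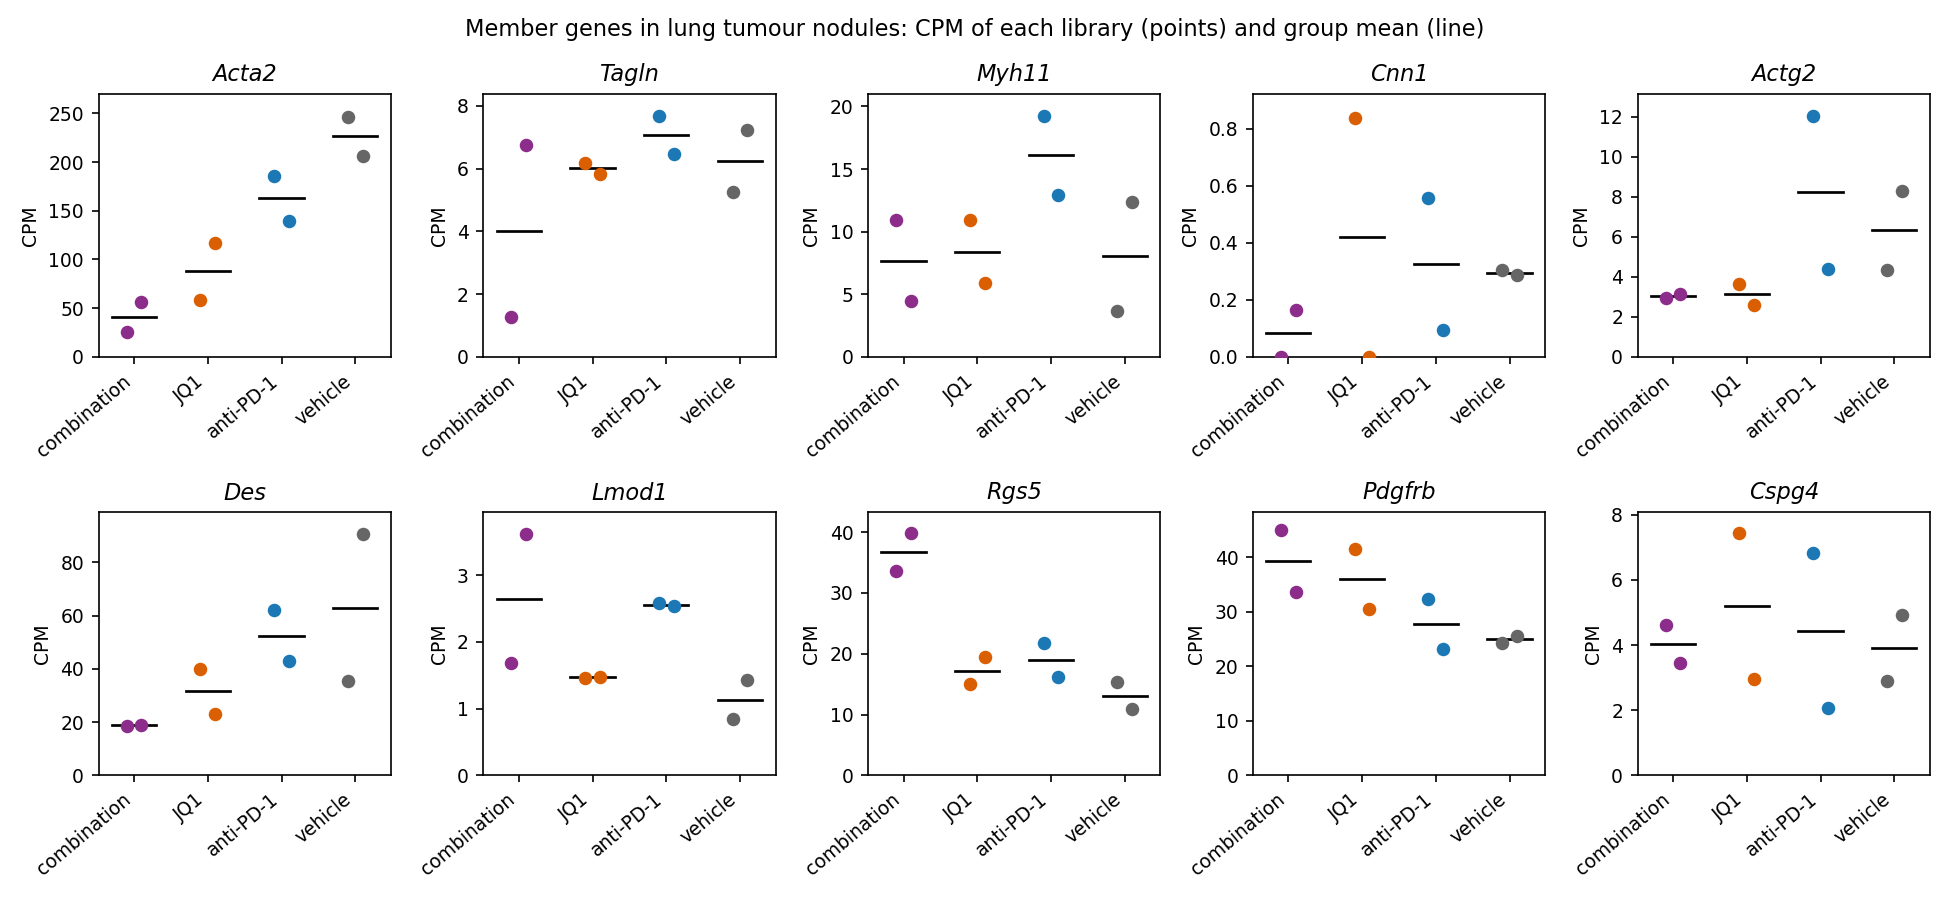
Level of each member gene in CPM (vertical axes, 1 scale per panel), with 1 point per library, a bar at the mean of each group of 2, and the groups combination, JQ1, anti-PD-1 and vehicle from left to right. Acta2 lay at 26.1 to 117 CPM in the 4 libraries given JQ1 and at 140 to 246 CPM in the other 4, whereas Tagln, Myh11 and Cspg4 overlapped between groups. Of all tested genes, 9.37% had all 4 libraries given JQ1 below the other 4.

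In the combination against vehicle, Acta2 fell 5.41-fold (log2 fold change -2.44, SE 0.43, adjusted p = 0.0261, edgeR quasi-likelihood test with Benjamini-Hochberg adjustment). Averaged over both backgrounds, that is, JQ1 against vehicle and combination against anti-PD-1 together, it fell 3.17-fold with JQ1 (log2 fold change -1.67, SE 0.30, adjusted p = 0.0208). With JQ1 alone against vehicle the log2 fold change was -1.37 (SE 0.41, adjusted p = 0.443), in a comparison in which edgeR and limma voom called 0 of the 14085 genes, DESeq2 80, and 1427 had an unadjusted p under 0.05. Among the 9 tested members, 1 rose and 1 fell in the combination, where 4.8% of all tested genes were called, 2.44% higher and 2.36% lower. Over both backgrounds of JQ1, 0 rose and 2 fell, where 8.27% of all tested genes were called, 4.22% higher and 4.05% lower. The groups are small, and the Acta2 call in the combination was lost without combination replicate 2 (adjusted p = 0.0585), vehicle replicate 1 (0.127) or vehicle replicate 2 (0.126), and with a ribosomal RNA term in the fit (log2 fold change -2.21, SE 1.83, adjusted p = 0.775). The call over both backgrounds was lost without anti-PD-1 replicate 1 (adjusted p = 0.0609), vehicle replicate 1 (0.0769) or vehicle replicate 2 (0.0779), and with the ribosomal RNA term (log2 fold change -1.53, SE 1.15, adjusted p = 0.690). With a sex term in the fit, the log2 fold change of Acta2 was -2.13 in the combination and -1.03 with JQ1 alone. In bulk RNA, fewer cells of a type and less RNA per cell cannot be told apart.

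Cytoplasmic actins, whose coding sequences resemble that of Acta2, fell in the same comparisons. Actb (cytoplasmic beta actin), which was added after values were seen, stood at 7117 and 10871 CPM in the combination libraries, 12187 and 13970 with JQ1, 18239 and 23267 with anti-PD-1, and 23816 and 23287 with vehicle. It fell in the combination (log2 fold change -1.39, SE 0.29, adjusted p = 0.0328, edgeR) and with JQ1 over both backgrounds (-1.03, SE 0.20, adjusted p = 0.0247, edgeR). Actg1 (cytoplasmic gamma actin) fell as well, by 2.22 on the log2 scale in the combination (SE 0.30, adjusted p = 0.0133, edgeR) and by 1.55 with JQ1 over both backgrounds (SE 0.21, adjusted p = 0.00974, edgeR). Acta2 was a small share of the actin counts: per 100 Actb counts there were 0.366 and 0.518 Acta2 counts in the combination libraries, 0.478 and 0.839 with JQ1, 1.02 and 0.601 with anti-PD-1, and 1.03 and 0.885 with vehicle. These ratios overlapped between libraries with and without JQ1, unlike the Acta2 levels themselves. Stretches of coding sequence that are identical in another gene, counted for all windows of 50 bases, made up 7 of 1082 windows of Acta2, shared with Actg1 and actin pseudogenes. Windows of 30 bases raised this to 33 of 1102, and the read length was not given in the sources used here.

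Desmin (Des), the intermediate filament of smooth and striated muscle, stood at 18.5 and 19.1 CPM in the combination libraries, 39.998 and 23.1 CPM with JQ1, 62.1 and 42.9 CPM with anti-PD-1, and 35.5 and 90.6 CPM with vehicle. Both combination libraries were below both vehicle libraries, as for 29.1% of all tested genes, and the vehicle libraries themselves differed widely. With JQ1 over both backgrounds Des fell 2.36-fold (log2 fold change -1.24, SE 0.32, adjusted p = 0.0445, edgeR). In the combination against vehicle its log2 fold change was -1.74 (SE 0.46, adjusted p = 0.0574, edgeR), just outside the threshold, while DESeq2 (adjusted p = 0.00393) and the edgeR fit with no filter on low counts (2.41e-05) called it. Des is the member whose call held least, since for JQ1 over both backgrounds it lost its call in 7 of the 8 fits that left out 1 library, the exception being JQ1 replicate 1 left out (adjusted p = 0.0499). Without vehicle replicate 2 the log2 fold change was -0.84, and with limma voom the adjusted p was 0.0559. The Des call over both backgrounds was also lost with a sex term or a ribosomal RNA term in the fit. Des shares its exons in part with a predicted transcript on the opposite strand (Gm15179), and whether reads were counted by strand was not given.

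Because Des also marks striated muscle, the striated marker list was set beside it. Of 14 genes, 8 had enough counts to test, and 2 fell in the combination: the cardiac myosins Myh7 (log2 fold change -2.33, SE 0.37, adjusted p = 0.0178, edgeR) and Myh6 (-2.18, SE 0.40, adjusted p = 0.0279, edgeR). Of all tested genes, 2.36% fell in the combination and 4.05% fell with JQ1 over both backgrounds. With JQ1 over both backgrounds 3 fell, with skeletal actin Acta1 (-2.56, SE 0.45, adjusted p = 0.0201, edgeR) in addition to both myosins. Acta1 stood at 0.420 and 1.15 CPM in the combination libraries, 1.88 and 0.783 with JQ1, 19.3 and 11.4 with anti-PD-1, and 1.75 and 3.61 with vehicle. With JQ1 alone its log2 fold change was -1.03 (SE 0.59, adjusted p = 0.544, edgeR). The list's summed level was 1225 and 671 CPM in the combination libraries, 2405 and 3746 with JQ1, 4602 and 3287 with anti-PD-1, and 5371 and 3859 with vehicle, nearly all of it from Myh7 and Myh6. Cardiac actin Actc1 was at 0 or under 1 CPM in 7 libraries and at 21.4 CPM in anti-PD-1 replicate 1, where Acta1 stood at 19.3 CPM and the calcium channel Ryr2 at 16.1 CPM. Actn2 had 53 counts, all in anti-PD-1 replicate 1. Mb (4 counts over all libraries), Myl7 (9), Ckm (15) and Myl4 (82) also had too few counts to test, whereas Ttn had 2701. The troponins Tnnt2, Tnni3 and Tnnc1 had vehicle means of 2.68, 1.03 and 0.477 CPM, beside 4131 CPM for Myh7. They were not called in the combination or with JQ1 over both backgrounds. The part of striated muscle in the Des levels was not tested.

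Gamma smooth muscle actin (Actg2), the actin of visceral smooth muscle, had 2.94 and 3.13 CPM in the combination libraries, 3.66 and 2.61 CPM with JQ1, 12.1 and 4.41 CPM with anti-PD-1, and 4.35 and 8.31 CPM with vehicle. All 4 libraries given JQ1 lay below the other 4, as for Acta2. Such a complete separation downward was seen for 9.37% of all tested genes, and upward for 10.2%, where no member showed it. In the combination against vehicle, 3 members (Acta2, Actg2, Des) had both libraries below and 3 (Lmod1, Rgs5, Pdgfrb) both above, beside 29.1% and 29.5% of all tested genes. Its log2 fold change was -1.23 for JQ1 over both backgrounds (SE 0.40, adjusted p = 0.0748, edgeR) and -1.05 in the combination (SE 0.59, adjusted p = 0.267, edgeR), which did not pass. Over both backgrounds it passed with DESeq2 (adjusted p = 0.0444) and in edgeR with no filter on low counts (0.00966).

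The 3 remaining contractile genes with enough counts did not follow Acta2. Transgelin (Tagln) had 1.26 and 6.75 CPM in the combination libraries, 6.18 and 5.83 with JQ1, 7.67 and 6.47 with anti-PD-1, and 5.26 and 7.22 with vehicle. Only combination replicate 1 stood low, on 3 counts, and the log2 fold change in the combination was -0.50 (SE 0.56, adjusted p = 0.589, edgeR). Tagln shares its exons in part with Pcsk7 and with the antisense gene Gm48529, both on the opposite strand. Whether reads were counted by strand was not given. Smooth muscle myosin (Myh11) had 10.9 and 4.44 CPM in the combination libraries, 10.9 and 5.91 with JQ1, 19.2 and 12.9 with anti-PD-1, and 3.66 and 12.4 with vehicle. Replicates of Myh11 differed by as much as groups, and its log2 fold change was -0.14 in the combination (SE 0.65, adjusted p = 0.904, edgeR) and -0.54 for JQ1 over both backgrounds (SE 0.44, adjusted p = 0.414, edgeR). Leiomodin (Lmod1), which nucleates actin filaments, had 1.68 and 3.62 CPM in the combination libraries, 1.47 and 1.48 with JQ1, 2.58 and 2.53 with anti-PD-1, and 0.839 and 1.43 with vehicle. It was higher in both combination libraries than in both vehicle libraries on only 157 counts in all, and did not pass (log2 fold change 1.28, SE 0.59, adjusted p = 0.193, edgeR).

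Set side by side within a library, Acta2 counts ranged from 8.34 to 46.8 per Tagln count over the 8 libraries and from 2.38 to 67.3 per Myh11 count. The highest value of both ratios was in vehicle replicate 1 and the lowest of both was in a combination library. The 7 contractile genes together summed to 77.4 ± 22.7 CPM in the combination, 139 ± 24.6 with JQ1, 250 ± 57.3 with anti-PD-1 and 311 ± 21.2 with vehicle (SD, n = 2 each). Acta2 made up 42.5% to 83.2% of that sum in a library, so the sum mostly repeats Acta2. The median log2 fold change of the 6 tested contractile genes was -0.78 in the combination and -0.88 for JQ1 over both backgrounds, beside 0.067 and 0.060 over all tested genes.

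Of the 3 pericyte members, 1 rose in the combination and none passed with JQ1 over both backgrounds. Rgs5 (chromosome 1, 169655501 to 169695813, plus strand) had 33.6 and 39.8 CPM in the combination libraries, 14.97 and 19.5 CPM with JQ1, 21.8 and 16.2 CPM with anti-PD-1, and 15.3 and 10.9 CPM with vehicle. For Rgs5, both combination libraries stood above both vehicle libraries, as for 29.5% of all tested genes. Its means were 36.7 ± 4.38, 17.2 ± 3.19, 19.0 ± 3.92 and 13.1 ± 3.10 CPM in the combination, JQ1, anti-PD-1 and vehicle groups (SD, n = 2 each), and the JQ1 libraries overlapped those of anti-PD-1 and of vehicle. Rgs5 rose 2.81-fold in the combination (log2 fold change 1.49, SE 0.33, adjusted p = 0.0375, edgeR). It did not pass for JQ1 over both backgrounds (log2 fold change 0.67, SE 0.23, adjusted p = 0.083, edgeR). The combination call was lost in 5 of the 8 fits that left out 1 library, namely combination replicate 2 (adjusted p = 0.134), anti-PD-1 replicates 1 and 2 (0.0553 and 0.0550) and vehicle replicates 1 and 2 (0.185 and 0.261), and when only the combination and vehicle libraries were fitted (0.0562). With a ribosomal RNA term in the fit the log2 fold change was 1.65 with a wider error (SE 1.28, adjusted p = 0.755).

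**Figure D2:**
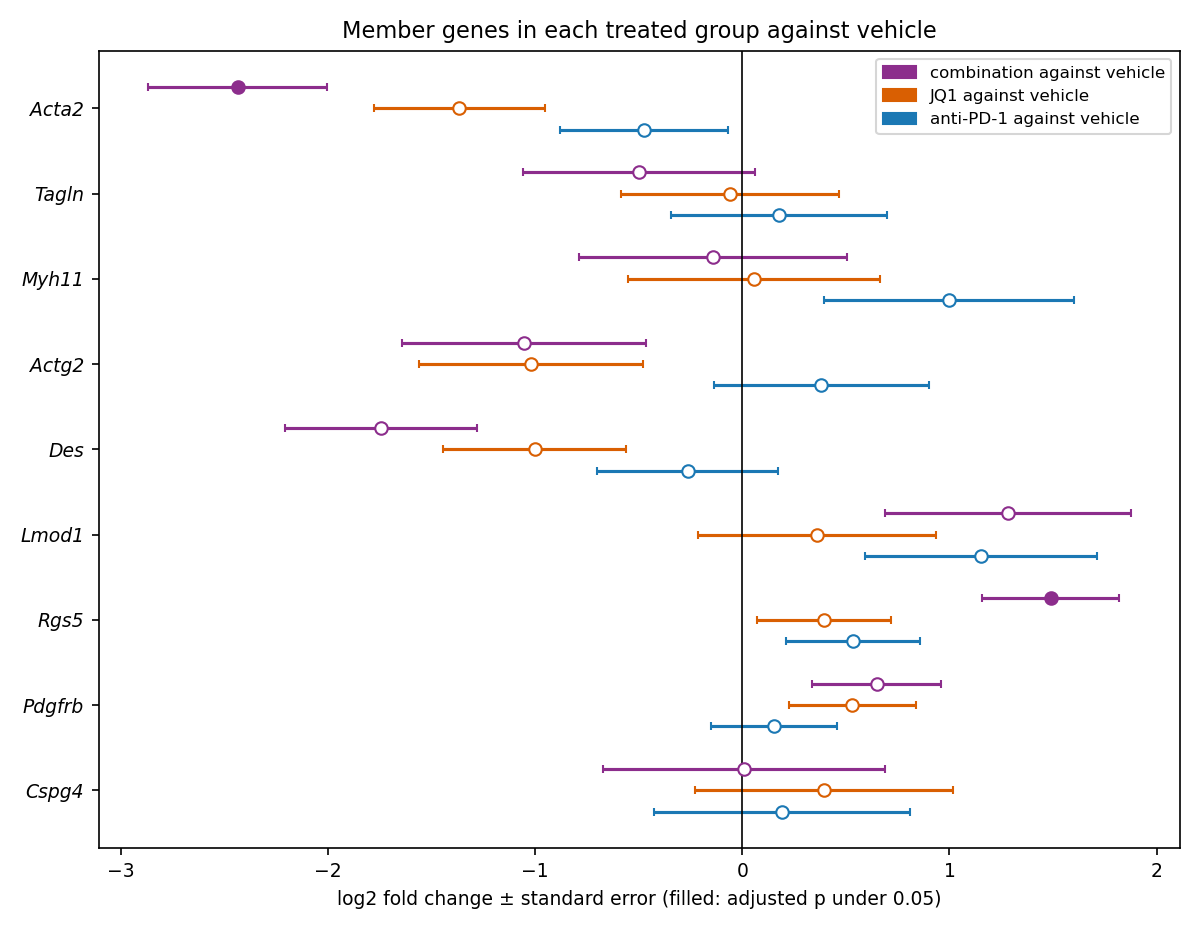
Log2 fold change against vehicle (horizontal axis) of the 9 tested members (rows), with a point for the combination, JQ1 and anti-PD-1 each and bars of 1 standard error. Filled points passed an adjusted p of 0.05: Acta2 at -2.44 and Rgs5 at 1.49, both in the combination.

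Pdgfrb, the receptor through which pericytes are recruited, had 45.0 and 33.7 CPM in the combination libraries, 41.6 and 30.6 CPM with JQ1, 32.4 and 23.2 CPM with anti-PD-1, and 24.2 and 25.7 CPM with vehicle. For Pdgfrb, the combination libraries both stood above the vehicle libraries, as for 29.5% of all tested genes. Its log2 fold change in the combination was 0.65 (SE 0.31, adjusted p = 0.205, edgeR) and for JQ1 over both backgrounds 0.51 (SE 0.22, adjusted p = 0.138, edgeR), neither of which passed. The gene lies on chromosome 18, and its sequence is not shown. Cspg4 had 4.62 and 3.46 CPM in the combination libraries, 7.43 and 2.96 with JQ1, 6.83 and 2.06 with anti-PD-1, and 2.90 and 4.93 with vehicle. No group stood apart, and the log2 fold change in the combination was 0.0075 (SE 0.68, adjusted p = 0.996, edgeR). The 3 pericyte genes together summed to 80.1 ± 4.38 CPM in the combination, 58.5 ± 7.72 with JQ1, 51.2 ± 13.8 with anti-PD-1 and 42.0 ± 0.665 with vehicle (SD, n = 2 each). Rgs5 counts per 100 Pdgfrb counts were 74.8 and 118 in the combination libraries, 36.0 and 63.6 with JQ1, 67.2 and 70.0 with anti-PD-1, and 63.2 and 42.6 with vehicle.

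With anti-PD-1 alone against vehicle, edgeR called 0 members and 0 of all tested genes (limma voom 0, DESeq2 9), 279 genes had an unadjusted p under 0.05, and no member did. The log2 fold changes were -0.47 for Acta2 (SE 0.41), -0.26 for Des (SE 0.44), 0.53 for Rgs5 (SE 0.32), 0.998 for Myh11 (SE 0.60) and 1.15 for Lmod1 (SE 0.56). With a sex term in the fit they were -0.057, -0.29, 0.69, 0.82 and 1.31 in the same order of genes. Averaged over both backgrounds, anti-PD-1 gave 0 calls among the members, where 0.0142% of all tested genes were called, and 3 of the 9 tested members had an unadjusted p under 0.05, beside 10.1% of all tested genes. These were Acta2 (log2 fold change -0.77, SE 0.29), Rgs5 (0.81, SE 0.23) and Lmod1 (1.04, SE 0.41), with adjusted p of 0.421, 0.302 and 0.436 by edgeR. DESeq2 and limma voom also called 0 members in these comparisons. The interaction, which asks whether JQ1 acted differently with and without anti-PD-1, passed for no member and for 0% of tested genes by edgeR, beside 13 genes by DESeq2, 0 by limma voom and 880 with an unadjusted p under 0.05. Its log2 values were -0.60 for Acta2 (SE 0.58, adjusted p = 0.889, edgeR), -0.48 for Des (SE 0.63) and 0.56 for Rgs5 (SE 0.46, adjusted p = 0.865, edgeR), and no member had an unadjusted p under 0.05. The combination was not set directly against JQ1 alone. Whether the fall of Acta2, which passed with the combination and not with JQ1 alone, differed between them was thus not tested. With JQ1 alone, 2 of the 9 tested members had an unadjusted p under 0.05, beside 10.1% of all tested genes. By edgeR, DESeq2 or limma voom 0 members were called there, beside 0% of all tested genes by edgeR.

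The wider apparatus of contraction was read from a list of 22 other smooth muscle genes, of which 19 were tested. In the combination 2.44% of all tested genes rose and 2.36% fell, and over both backgrounds of JQ1 4.22% rose and 4.05% fell. These shares stand beside the counts of every gene list, and no list was tested as a set. None rose in the combination and 2 fell, tropomyosin 1 (Tpm1, log2 fold change -1.68, SE 0.26, adjusted p = 0.0177, edgeR) and caldesmon (Cald1, -1.69, SE 0.36, adjusted p = 0.0336, edgeR), and the list's median was -0.51. Tpm1, which runs along actin filaments, stood at 355 and 284 CPM in the combination libraries, 483 and 590 with JQ1, 1079 and 844 with anti-PD-1, and 1030 and 1022 with vehicle. Every library given JQ1 was below every library without it, as for 9.37% of all tested genes. Over both backgrounds of JQ1, 4 of the 19 fell and none rose: Tpm1 (log2 fold change -1.26), the focal adhesion protein vinculin (Vcl, -0.82), the myosin light chain Myl9 (-1.16) and tropomyosin 2 (Tpm2, -0.90), and the median was -0.48. Several of these genes are also expressed by epithelial and other cells. Cytoskeletal genes outside the list moved too: vimentin (Vim) fell by 1.27 on the log2 scale in the combination (SE 0.32, adjusted p = 0.0481, edgeR), and non-muscle myosin Myh9 fell by 0.70 with JQ1 over both backgrounds (SE 0.17, adjusted p = 0.0395, edgeR).

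Of the 10 SRF and myocardin regulators, 1 fell in the combination and the same gene, Srf, fell with JQ1 over both backgrounds, with medians of -0.13 and -0.32. Srf, the factor that binds the CArG box, stood at 35.3 and 39.3 CPM in the combination libraries, 79.6 and 79.8 with JQ1, 121 and 127 with anti-PD-1, and 115 and 131 with vehicle. The libraries fell into 3 levels, with JQ1 between the combination and the other groups. Of all tested genes, 9.37% had every library given JQ1 below every library without it. The log2 fold change of Srf was -1.72 in the combination (SE 0.25, adjusted p = 0.0149, edgeR) and -1.18 for JQ1 over both backgrounds (SE 0.17, adjusted p = 0.0107, edgeR). Myocardin itself (Myocd) had 115 counts in all and a log2 fold change of -1.45 in the combination that did not pass (SE 0.88, adjusted p = 0.304, edgeR).

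**Figure D3:**
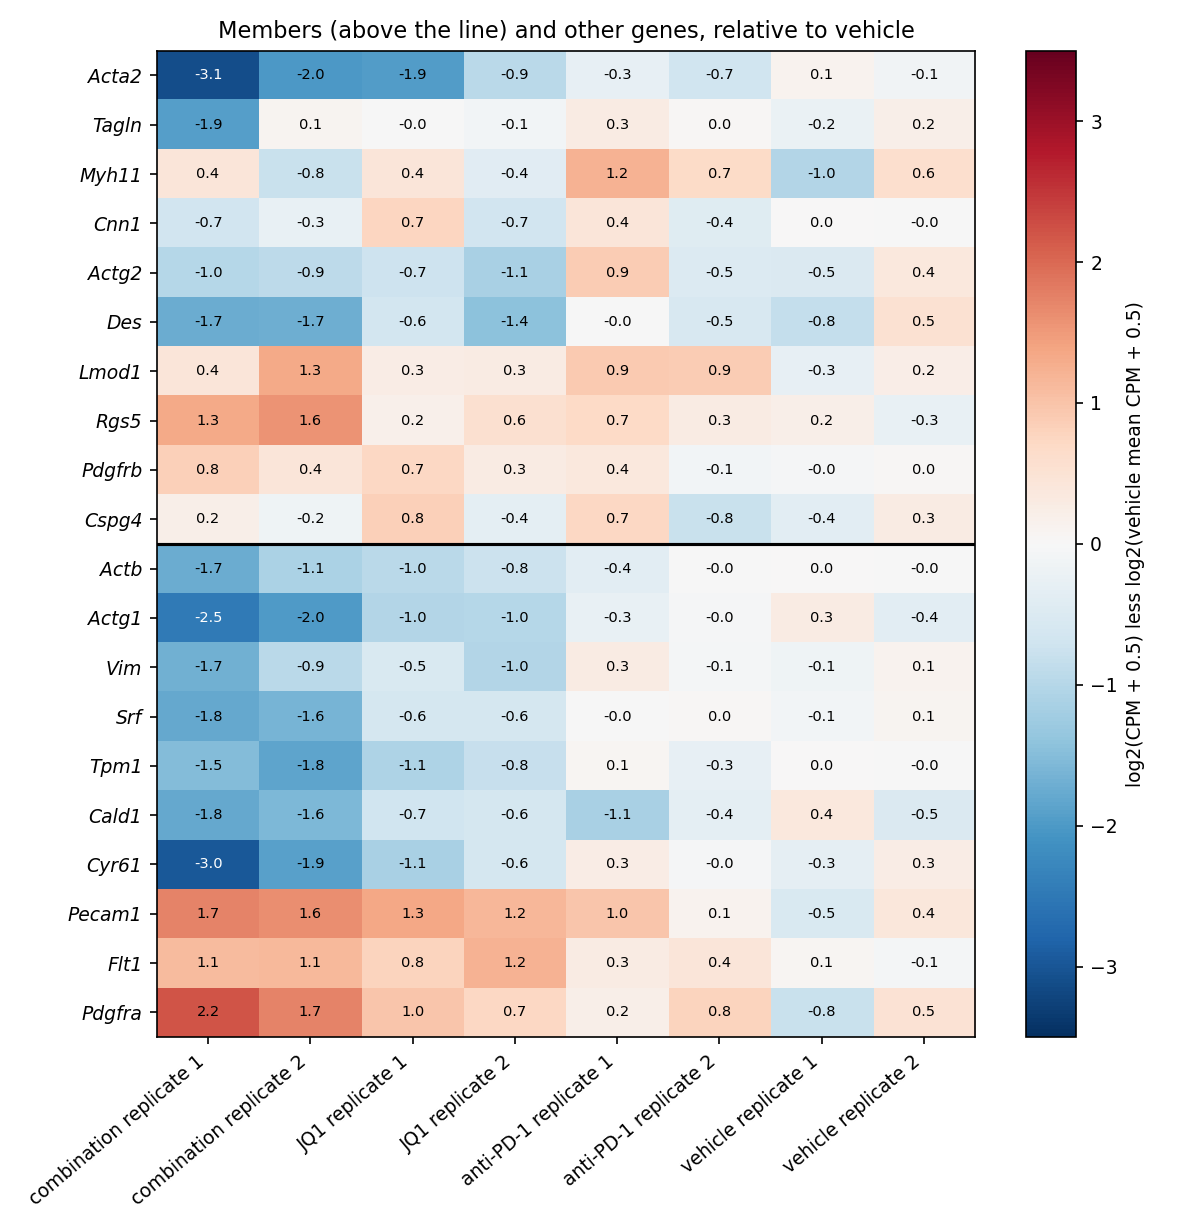
Level of each member (rows above the line) and of selected other genes (rows below it) in each library (columns), as log2(CPM + 0.5) less the log2 of the vehicle mean CPM + 0.5, with blue for lower and red for higher. Acta2 and Srf are lower in the 4 libraries given JQ1 than in the other 4, as are 9.37% of all tested genes. Rgs5 is higher in both combination libraries than in both vehicle libraries, as are 29.5% of all tested genes.

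Among 17 other pericyte genes, 14 were tested and 1 fell in the combination, Rgs4 (log2 fold change -1.60, SE 0.38, adjusted p = 0.0447, edgeR), a relative of Rgs5 in the same family of G protein regulators. The median of the list was 0.31 in the combination and 0.18 for JQ1 over both backgrounds, where none passed. Rgs4 stood at 23.5 and 11.2 CPM in the combination libraries, 29.1 and 44.9 with JQ1, 29.2 and 26.6 with anti-PD-1, and 54.7 and 47.5 with vehicle. Higd1b, Ndufa4l2 and Vtn, which are often used to mark pericytes, had too few counts to test.

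Of the 5 PDGF ligands and receptor alpha, 1 rose in the combination, Pdgfra, the receptor of fibroblasts (log2 fold change 2.02, SE 0.45, adjusted p = 0.0379, edgeR), and it also rose with JQ1 over both backgrounds (1.18, SE 0.31, adjusted p = 0.0458, edgeR). The list's median was 0.41 in the combination. Of the 10 TGF-beta ligands and receptors, 1 fell in the combination, the ligand Tgfb3 (-2.17, SE 0.37, adjusted p = 0.0225, edgeR), with a median of -0.63, and 2 fell with JQ1 over both backgrounds, Tgfb3 (-1.56, SE 0.25, adjusted p = 0.0151, edgeR) and the signal transducer Smad2 (-0.81, SE 0.18, adjusted p = 0.0313, edgeR), with a median of -0.22. Tgfb3 had 3.78 and 7.24 CPM in the combination libraries, 16.8 and 13.4 with JQ1, 26.8 and 31.2 with anti-PD-1, and 25.4 and 26.7 with vehicle.

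**Figure D4:**
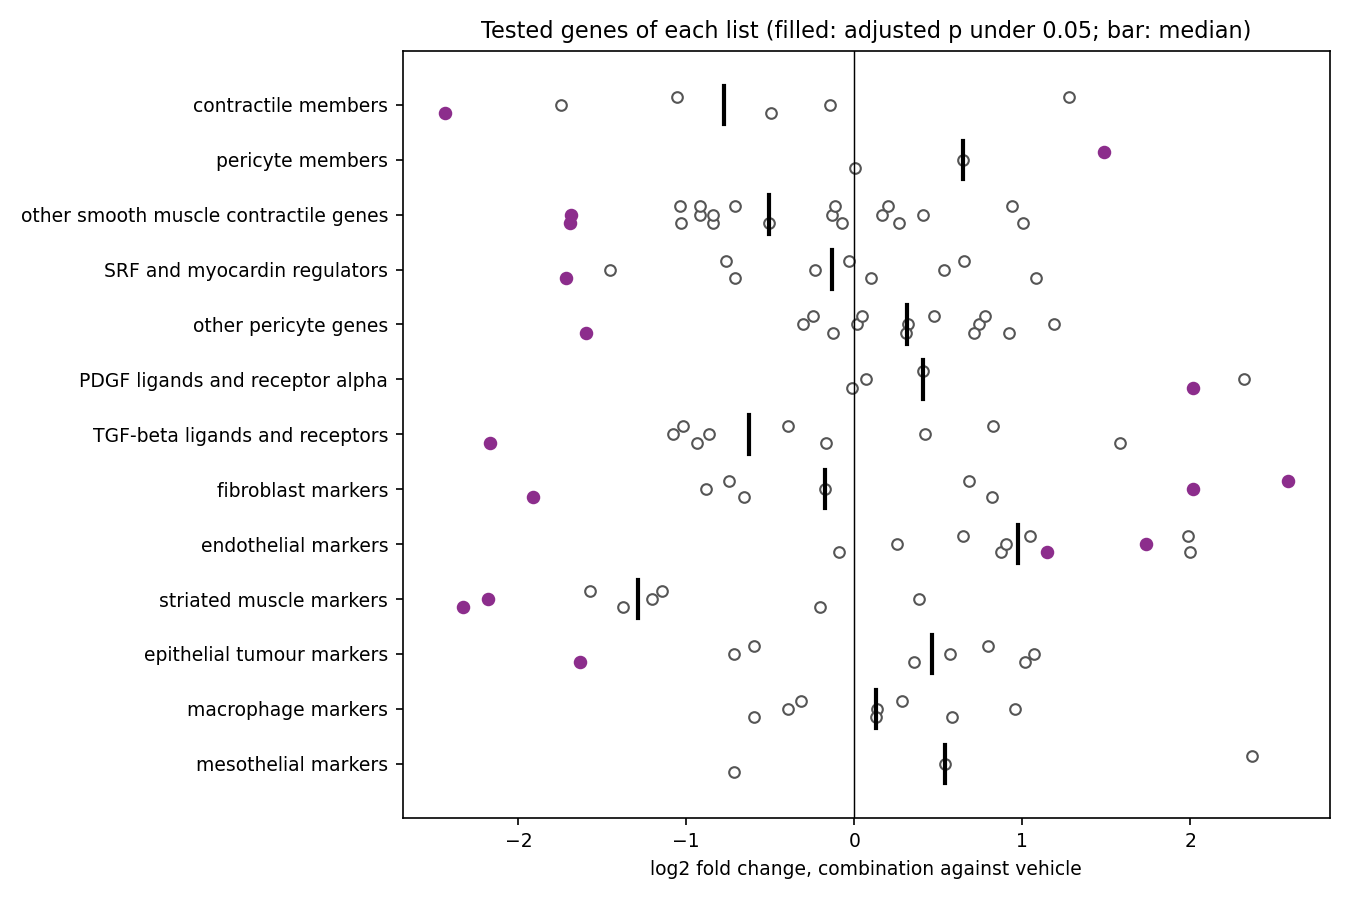
Log2 fold change in the combination against vehicle (horizontal axis) of the tested genes of each list (rows), with a filled point for a gene past an adjusted p of 0.05 and a bar at the list's median. The contractile members have a median of -0.78, the pericyte members 0.65 and the endothelial markers 0.97.

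Markers of other cells in the nodules are given for comparison. Of 10 fibroblast markers, 9 were tested, and in the combination the collagen gene Col1a1 fell (log2 fold change -1.92, SE 0.30, adjusted p = 0.0178, edgeR) while decorin (Dcn, 2.58, SE 0.49, adjusted p = 0.0294, edgeR) and Pdgfra rose, with a median of -0.18. With JQ1 over both backgrounds Pdgfra rose and Col1a1 fell (-1.45), and the median was -0.61. Col1a1 stood at 250 and 255 CPM in the combination libraries, 559 and 460 with JQ1, 1255 and 764 with anti-PD-1, and 1087 and 820 with vehicle. Endothelial markers, the cells that pericytes cover, rose where they changed. Of 10, 2 rose in the combination, Pecam1 (1.74, SE 0.42, adjusted p = 0.0467, edgeR) and the VEGF receptor Flt1 (1.15, SE 0.28, adjusted p = 0.0463, edgeR), and the median was 0.97. With JQ1 over both backgrounds 3 rose, with the tight junction gene Cldn5 (1.70, SE 0.42, adjusted p = 0.0397, edgeR) as the third, and the median was 0.53. The summed endothelial level was 241 and 281 CPM in the combination libraries, 217 and 199 with JQ1, 194 and 195 with anti-PD-1, and 111 and 161 with vehicle, so it was highest in the libraries where Rgs5 was highest. The part of the endothelial level in the Rgs5 result was not tested.

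Of the 8 epithelial tumour markers, the lung lineage factor Nkx2-1 fell in the combination (log2 fold change -1.63, SE 0.34, adjusted p = 0.0328, edgeR), and with JQ1 over both backgrounds Nkx2-1 fell (-1.08) while Cdh1 (0.84) and Epcam (0.98) rose. Their summed level ranged from 5267 to 9358 CPM over the libraries, with every group overlapping. None of the 8 macrophage markers passed in the combination, where C1qa (0.96, SE 0.52, adjusted p = 0.259, edgeR) and Csf1r (-0.59, SE 0.35, adjusted p = 0.292, edgeR) had the smallest p of the list. None of the 3 tested of 6 mesothelial markers passed, with Msln at 2.37 (SE 0.97, adjusted p = 0.171, edgeR) and Krt19 at -0.71 (SE 0.42, adjusted p = 0.292, edgeR).

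The members were also compared with each other by the root mean square (RMS) difference between their log2(CPM + 0.5) profiles over the 8 libraries, each less its own mean, as a description of shape on shared libraries. Actg2 and Des were closest (0.38), followed by Pdgfrb and Cspg4 (0.41) and Rgs5 and Pdgfrb (0.47), and Acta2 was farthest from Rgs5 (1.4995) and Pdgfrb (1.34). Outside the members, the genes most like Acta2 among 10831 candidates were Zfp462 (0.34), Olfm1 (0.34), Usp28 (0.35) and Cyr61 (0.37 on the same measure). Cyr61, a secreted matrix protein gene and a known target of SRF, stood at 7.14 and 15.5 CPM in the combination libraries, 26.8 and 38.3 with JQ1, 71.4 and 57.7 with anti-PD-1, and 47.7 and 71.1 with vehicle. It fell by 2.34 on the log2 scale in the combination (SE 0.40, adjusted p = 0.0227, edgeR). The closer genes Zfp462 (adjusted p = 0.0712, edgeR), Olfm1 (0.0625) and Usp28 (0.0767) did not pass there. The 4 genes most like Acta2 were picked by their profiles in these same libraries, so low values with JQ1 follow from that choice. The genes most like Pdgfrb were Ing1 (0.10), Zfp933 (0.12), Cptp (0.12) and Mre11a (0.13), and none of these 4 passed in the combination.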

How the data were processed

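RNA from 8 libraries of tumour nodules was captured with probes for coding regions (TruSeq RNA Access kit), per the labels' protocols. The authors deposited whole-number read counts per gene symbol, with no normalization; a second, normalized table was not used. Per the submitters' processing notes, bcl2fastq, STAR, featureCounts and DESeq2 were used with mm10 or GRCm38. Their versions, the annotation, the read length and strand setting were not given in the sources used here.

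Genes passing filterByExpr (minimum count 10) were fitted with the quasi-likelihood test of edgeR 4.0.16 (R 4.3.3, TMM factors, robust, all 8 libraries, a mean per group, 4 residual degrees of freedom, biological coefficient of variation 0.332, prior count 0.125). The contrasts set each treatment and the combination against vehicle, averaged JQ1 and anti-PD-1 each over both backgrounds, and took their interaction. Benjamini-Hochberg adjustment ran over 14085 genes, with calls at 0.05, and rose and fell mean a call. SE is the log2 fold change divided by the square root of F. Positions come from GENCODE vM21 on GRCm38, 1-based. Libraries were compared by chi-square and none was a copy of another (lowest chi-square per degree of freedom 21.7 within groups and 19.5 between groups). The 369 ribosomal RNA symbols were summed per library.

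The members and gene lists were chosen with earlier results of these data known. From each list the text names called genes (up to 4 by smallest p). Where none was called, it names the 2 with the smallest p in the combination. Myocd, Actb, Actg1, Vim, Myh9, Actc1, Actn2, Mb, Myl7, Ckm, Myl4, Ttn, Tnnt2, Tnni3, Tnnc1, Ryr2, Higd1b, Ndufa4l2 and Vtn were chosen after values were seen. Alternatives were RLE factors, no filter, DESeq2 1.42.0, limma voom (limma 3.58.1), a fit of only the groups compared and each library left out. Fits with sex or ribosomal RNA share as a term were added after seeing the data.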

Additional observations from a re-analysis of the deposited data

How the results depend on the processing

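No paired analysis was possible because replicate numbers follow accession order and pair nothing. Results are log2 fold changes or numbers of genes called, and the cause of each change was not tested. The median log2 fold change over all genes moved by less than 0.1 between TMM, RLE, DESeq2 and limma voom. In the combination against vehicle, 2 of 9 members were called; the number was 3 with no filter or DESeq2, 1 with only the compared groups fitted, 0 with the ribosomal RNA term, and 0 to 3 with a library left out. All genes called (676) became 1992 with no filter, 1563 with DESeq2, 245 with only the compared groups, 339 with a sex term, 2 with the ribosomal RNA term, and 7 to 1115 with a library left out. For JQ1 over both backgrounds, 2 members called became 3 with no filter or DESeq2, 1 with limma voom or a sex term, 0 with the ribosomal RNA term, and 0 to 2 with a library left out; 1165 genes became 2527 with no filter, 1993 with DESeq2, 3 with the ribosomal RNA term, and 17 to 1716 with a library left out. JQ1 alone called 1 member (Acta2) and 250 genes with no filter, 80 genes with DESeq2, 1 with only the compared groups, 2 with the ribosomal RNA term and 0 to 17 with a library left out. Anti-PD-1 alone called 55 genes with no filter, 9 with DESeq2 and 0 to 1 with a library left out. Anti-PD-1 over both backgrounds called 1 member and 426 genes with no filter, 181 with DESeq2, 0 with RLE, limma voom or a sex term, 1 with the ribosomal RNA term and 0 to 43 with a library left out. The interaction called 138 genes with no filter, 13 with DESeq2 and 0 to 1 with a library left out. With a library left out, the log2 fold change of Acta2 ranged from -3.14 to -2.01 in the combination and from -2.02 to -1.46 for JQ1 over both backgrounds, that of Des from -2.28 to -0.93 and from -1.52 to -0.84, and that of Rgs5 in the combination from 1.25 to 1.73. Signs turned only for values that were not called. In the combination these were Cspg4 (-0.025 with RLE, -0.093 with no filter, -0.013 with DESeq2, -1.56 with the ribosomal RNA term, -0.33 to 0.43 with a library left out), Myh11 (1.02 with the ribosomal RNA term, -0.87 to 0.98 left out) and Tagln (-2.32 to 0.10 left out). For JQ1 over both backgrounds they were Myh11 (0.23 with the ribosomal RNA term, -0.91 to 0.017 left out), Lmod1 (-0.53 and -0.14 to 0.45) and Cspg4 (-0.94 and -0.31 to 0.65). Des turned for anti-PD-1 alone (-0.79 to 0.57 left out) and in the interaction (-1.32 to 0.032 left out). The ribosomal RNA share and the groups cannot be told apart in 8 libraries. Low counts limit Cnn1 (27 in all), Lmod1 (157), Cspg4 (381), Actg2 (513) and Tagln (544).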
